A study of Rattus norvegicus with 8 samples.

Results

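Rat liver preneoplasia and tumour markers are genes whose transcripts or proteins rise in altered hepatocyte foci, nodules and hepatocellular carcinoma. The set was chosen by name and holds 10 genes, of which 9 have a row among the 15115 genes of the authors' deposited table; Sox4, a transcription factor of the SRY-related family, was not analysed here. The tissue was liver of male F344 (Fischer) rats labelled wild type and 1 year old. The rats arrived at 4 weeks of age and had 1 week of acclimation. The tested animals (CDAA_PTS) ate a diet of defined L-amino acids that lacks choline, which brings about fatty liver and hepatocellular carcinoma, with pterostilbene at 1.34 g per kg of diet. Pterostilbene is a dimethylated relative of resveratrol, and these rats also had it during 3 opening weeks on choline-sufficient food, in a study of 60 weeks. The control animals (CDAA) ate the choline-deficient diet without the compound, after 3 weeks on the plain choline-sufficient diet. The series' design text writes the short name CDAA+PTS for its resveratrol group too; the compound given here is the one that the treatment label of each CDAA_PTS sample names. Each group has 4 sequenced rats of the 6 fed. The design text places CDAA data in an earlier deposit as well, and whether the libraries of both groups were made and sequenced together is not given, so such a batch and the diet cannot be told apart. The livers gave tumours, nodules or normal tissue, and the labels do not say which of these a library holds; no choline-sufficient liver was analysed here, so levels are not set against healthy tissue.

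In chemically or nutritionally induced rat liver cancer, initiated hepatocytes grow into foci and nodules that switch on enzymes of glutathione metabolism. Gstp1, the placental-type glutathione S-transferase, conjugates glutathione to electrophiles and is the classical stain for such foci, and Ggt1, gamma-glutamyltransferase, splits extracellular glutathione. Afp, the albumin-like serum protein of the fetal liver, and Gpc3, a cell-surface heparan sulfate proteoglycan, are oncofetal genes that adult hepatocytes largely silence and carcinomas can switch on again. Prom1 (CD133) and Cd44, a hyaluronan receptor, mark progenitor and tumour-initiating cells but also bile duct cells and leukocytes. Golm1 is a Golgi membrane protein shed into serum, Mdk (midkine) a heparin-binding growth factor and Tff3 a secreted trefoil peptide.

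Upstream sequence is shown for the most abundant marker and for the fetal serum protein, because they are the classical focus marker and the classical serum marker. RefSeq, with the GRCr8 assembly, held a promoter for 7 of the 10 genes, and Mdk, Golm1 and Sox4 had none there. The 250 bases before the annotated start are printed 5′ to 3′ on the gene's own strand. Capitals mark the motifs searched on both strands, which were the AP-1 element TGACTCA, the GC box GGGCGG and the TATA element TATAAA; no overlap with other motifs was examined. Gstp1 lies on the minus strand of GRCr8 at chr1:210769706-210769955, and Afp on the minus strand at chr14:17875646-17875895.
Gstp1: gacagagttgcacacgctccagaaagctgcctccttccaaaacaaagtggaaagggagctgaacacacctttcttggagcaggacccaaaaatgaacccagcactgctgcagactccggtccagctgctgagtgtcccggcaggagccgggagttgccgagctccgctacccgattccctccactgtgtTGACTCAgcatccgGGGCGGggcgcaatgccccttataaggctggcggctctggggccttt
Afp: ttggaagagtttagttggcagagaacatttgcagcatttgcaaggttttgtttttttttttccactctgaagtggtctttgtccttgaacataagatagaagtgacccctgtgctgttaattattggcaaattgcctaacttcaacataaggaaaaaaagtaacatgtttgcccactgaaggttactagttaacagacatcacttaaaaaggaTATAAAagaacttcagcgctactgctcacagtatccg
The Gstp1 window holds an AP-1 element from 61 to 55 bases before the start and a GC box from 47 to 42 bases before it. The Afp window holds a TATA element from 37 to 32 bases before the start. Among 33360 distinct promoter windows of the same length, 4.05% hold the AP-1 element, 30.5% the GC box and 12.9% the TATA element on either strand. Among the 7 genes with a window, the AP-1 element was found only in Gstp1. The Gstp1 window was 59.6% GC and the Afp window 37.2% GC. The distal Gstp1 enhancer known from rat work lies upstream of this window and was not examined.

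The question put to these genes was whether livers given pterostilbene on the choline-deficient diet differed in marker expression from livers on that diet alone. Abundant transcript of the focus marker Gstp1 was present in both groups, and no marker passed the threshold. The authors' deposited table holds 1 comparison value per gene from edgeR, DESeq2 and Cuffdiff and no value per rat. A gene counts as called at an edgeR adjusted p under 0.05 over all 15115 genes (Benjamini-Hochberg). Under this edgeR rule 0 of the 9 measured markers were called, against 3.41% of all genes (516 of 15115, 222 higher and 294 lower) in the authors' deposited table. At that background share a count of 0 among 9 is not a result about the markers. With an unadjusted edgeR p under 0.05, 1 marker passed, Ggt1, where 14.6% of all genes do so in the authors' deposited table. DESeq2 called 0 of the 8 markers for which the authors' deposited table has an adjusted DESeq2 p, against 4.46% of genes (1.96% higher and 2.5% lower), and 1, again Ggt1, had an unadjusted p under 0.05. Cuffdiff called 1 of 9, Ggt1, against 5.51% of the genes it tested (2.8% higher and 2.7% lower) in the authors' deposited table. The edgeR log2 fold changes of the authors' deposited table were above 0 for 6 markers and below 0 for 3, with a median of 0.06 beside 0.01 for all genes.

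**Figure D1:**
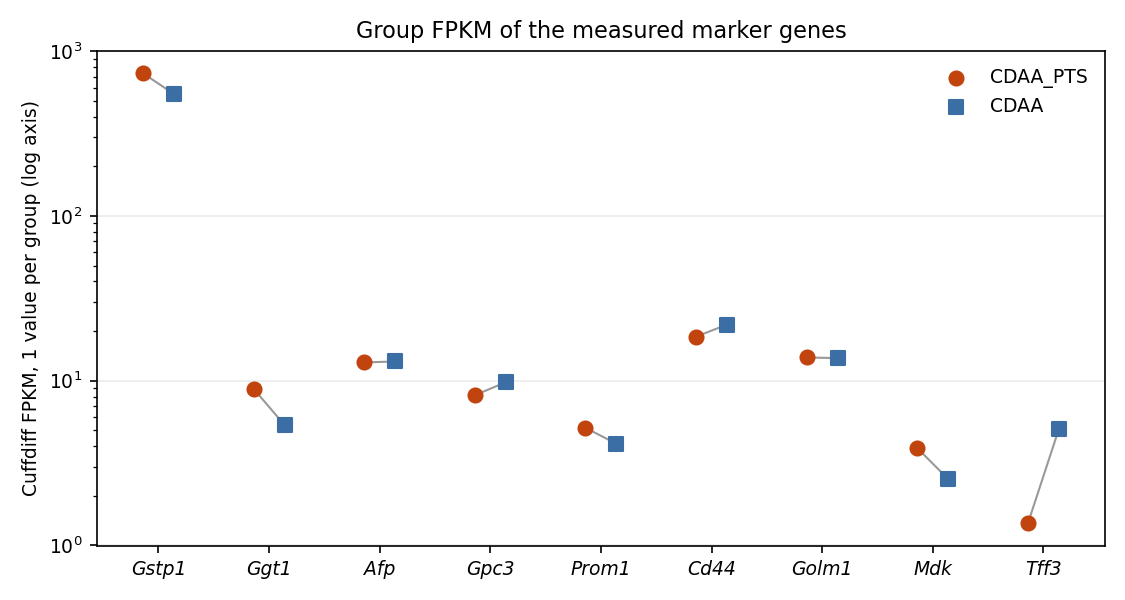
Cuffdiff FPKM of the 9 measured marker genes on a log axis, with 1 value per diet group (circles CDAA_PTS, squares CDAA) and no error, since the table holds none per group. Gstp1 stands at 736 and 550 FPKM, and the other markers lie between 1.36 and 21.9 FPKM in both groups.

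Levels were compared on the FPKM scale, which is per transcript length, and the authors' deposited table gives 1 value per group with no spread, so that the order of neighbouring genes cannot be tested. In CDAA_PTS livers the order of FPKM in the authors' deposited table was Gstp1, Cd44, Golm1, Afp, Ggt1, Gpc3, Prom1, Mdk and Tff3. In CDAA livers the order by FPKM in the authors' deposited table was Gstp1, Cd44, Golm1, Afp, Gpc3, Ggt1, Tff3, Prom1 and Mdk. Gstp1 had 39.8 times the FPKM of Cd44, the next marker, in CDAA_PTS livers and 25.1 times in CDAA livers, from the authors' deposited table. It ranked 105 of 15115 genes by FPKM in CDAA_PTS and 128 in CDAA. Across all genes the median FPKM was 6.39 in CDAA_PTS and 6.49 in CDAA in the authors' deposited table, and 5 of the 9 markers lay above it in both groups. Because these are bulk samples, fewer cells of a type and less RNA per cell cannot be told apart. No marker shares a locus identifier with another row of the table, and none overlaps another row's position.

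The enzyme markers had higher FPKM with pterostilbene, without a call in the count-based tests. Gstp1 (ENSRNOG00000018237, chromosome 1, 219291678 to 219294147 in rn6) had 736 FPKM in CDAA_PTS livers and 550 FPKM in CDAA livers in the authors' deposited table. The authors' deposited table puts its edgeR log2 fold change at 0.41 (adjusted p 0.82), and the Cuffdiff value was 0.42 with a q of 0.31. DESeq2, which moderates fold changes toward 0, gave Gstp1 0.11 ± 0.19 (log2, SE) according to the authors' deposited table. An approximate 95% interval, made from the edgeR log2 fold change and p of the authors' deposited table with a normal deviate, ran from -0.66 to 1.49 on the log2 scale. On the linear scale that interval ran from 0.634-fold to 2.80-fold of the level in CDAA livers. Ggt1 (ENSRNOG00000047697, chromosome 20, 14019860 to 14025068 in rn6) had 8.91 FPKM in CDAA_PTS livers and 5.36 FPKM in CDAA livers in the authors' deposited table. Its edgeR log2 fold change was 0.70 with an unadjusted p of 0.046 and 0.33 after adjustment, as the authors' deposited table has it, and the approximate interval ran from 0.01 to 1.39. Cuffdiff gave Ggt1 a log2 ratio of 0.73 with a q of 0.0088, and DESeq2 a moderated 0.42 with an SE of 0.21 (adjusted p 0.30, authors' deposited table). The Ggt1 call thus rests on Cuffdiff alone.

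The oncofetal markers were at modest levels in both groups. Afp (ENSRNOG00000002889, chromosome 14, 19141754 to 19159923 in rn6) had 12.9 FPKM in CDAA_PTS livers and 13.1 FPKM in CDAA livers in the authors' deposited table. The DESeq2 log2 fold change of Afp was 0.00 with an SE of 0.16, and its edgeR adjusted p was 1, both from the authors' deposited table. Gpc3 (ENSRNOG00000060179, chromosome X, 139579267 to 139916883 in rn6) had 8.15 FPKM in CDAA_PTS livers and 9.77 FPKM in CDAA livers in the authors' deposited table. The authors' deposited table puts its edgeR log2 fold change at -0.27 (adjusted p 0.86), and the approximate interval ran from -1.08 to 0.53. The Gpc3 interval takes in both a lower and a higher level; the Afp fold change was too near 0 for an interval of this kind.

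The progenitor and stem-cell surface markers gave fold changes of opposite sign, neither of them called. Prom1 (ENSRNOG00000003098, chromosome 14, 71533062 to 71637417 in rn6) had 5.16 FPKM in CDAA_PTS livers and 4.13 FPKM in CDAA livers, and edgeR gave a log2 fold change of 0.29 (adjusted p 0.74, authors' deposited table). Cd44 (ENSRNOG00000006094, chromosome 3, 92696312 to 92783658 in rn6) had 18.5 FPKM in CDAA_PTS livers and 21.9 FPKM in CDAA livers, and edgeR gave a log2 fold change of -0.19 (adjusted p 0.89, authors' deposited table). The approximate intervals on the log2 scale were -0.29 to 0.87 for Prom1 and -0.85 to 0.48 for Cd44.

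Among the Golgi and secreted markers, Golm1 had the narrowest interval of the markers that have one and Tff3 the widest. Golm1 (ENSRNOG00000018400, chromosome 17, 5382033 to 5409038 in rn6) had 13.8 FPKM in CDAA_PTS livers and 13.7 FPKM in CDAA livers in the authors' deposited table. The authors' deposited table puts its edgeR log2 fold change at 0.06 (adjusted p 0.92). The approximate interval of Golm1 ran from -0.19 to 0.30, which is 0.878-fold to 1.23-fold on the linear scale. Mdk (ENSRNOG00000017560, chromosome 3, 80833271 to 80842916 in rn6) had 3.89 FPKM in CDAA_PTS livers and 2.51 FPKM in CDAA livers in the authors' deposited table. The edgeR log2 fold change of Mdk was 0.56 with an adjusted p of 0.42, at a mean of 2.21 CPM over all libraries in the authors' deposited table, and the interval ran from -0.06 to 1.18. Tff3 (ENSRNOG00000001159, chromosome 20, 9850802 to 9855481 in rn6) had 1.36 FPKM in CDAA_PTS livers and 5.09 FPKM in CDAA livers in the authors' deposited table. With a mean normalized count of 9.14 it was the scarcest marker, and the tools differed most on it. The Tff3 log2 fold change was -1.0 in edgeR (adjusted p 0.65), -1.90 in Cuffdiff (q 0.15) and a moderated -0.20 with an SE of 0.17 in DESeq2, which gives no adjusted p, all from the authors' deposited table. The approximate interval of Tff3 ran from -2.63 to 0.63.

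**Figure D2:**
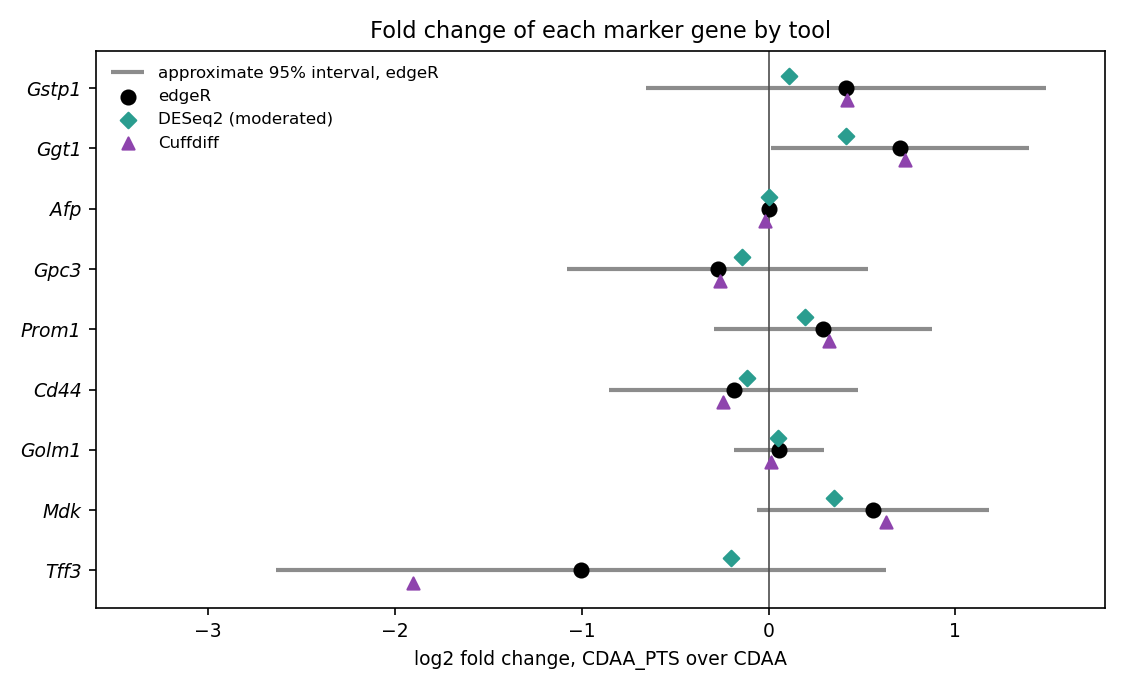
Log2 fold change of CDAA_PTS over CDAA for each measured marker from edgeR (circles), DESeq2 (diamonds, moderated toward 0) and Cuffdiff (triangles). Bars are approximate 95% intervals made from the edgeR p; Afp has no bar because its fold change is too near 0 for one, and among the bars shown only that of Ggt1, from 0.01 to 1.39, lies to one side of 0.

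The fold changes of 5 markers had larger errors than most genes of sufficient depth, as did those of several genes related to them. An implied standard error was computed as the size of the edgeR log2 fold change over the normal deviate of its p, both from the authors' deposited table. It was taken for the 8013 genes with a mean normalized count of at least 100 and a log2 fold change of at least 0.03 in size, and its median was 0.14. Gstp1 had an implied standard error of 0.55, larger than that of 99.7% of these genes. The corresponding share was 99.0% for Gpc3, 98.2% for Ggt1, 98.0% for Cd44 and 96.3% for Prom1, whereas Golm1, at 0.12, exceeded 31.9%. So 5 of the 6 markers with such a value lay above 95% of the genes, and Afp, Mdk and Tff3 fell outside the limits on size or depth. Against genes with a mean normalized count from 0.5 to 2 times the marker's own, the share was 99.8% for Gstp1, 98.8% for Gpc3, 98.7% for Cd44, 96.4% for Ggt1, 96.2% for Prom1 and 24.5% for Golm1. Of 101 genes of the related lists described further on that have such an error, 20 (19.8%) also lay above 95% of genes, so errors of this size are not particular to the markers. Among these 20 were the aldo-keto reductase Akr1b10 at 0.46, the cystine transporter Slc7a11 at 0.51, and Cd24, Krt19 and Spp1, genes of ductular cells, at 0.34, 0.31 and 0.32. Among the 1705 genes with a mean normalized count of at least 1000, only 1 other gene had an error as large as that of Gstp1. The DESeq2 log2 fold change of Gstp1 was 0.269 of its edgeR value, against a median ratio of 0.883 over the 644 such genes with an edgeR size of at least 0.2, all from the authors' deposited table. These errors come from the authors' models of the 8 libraries, and the levels of single rats were not analysed here.

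**Figure D3:**
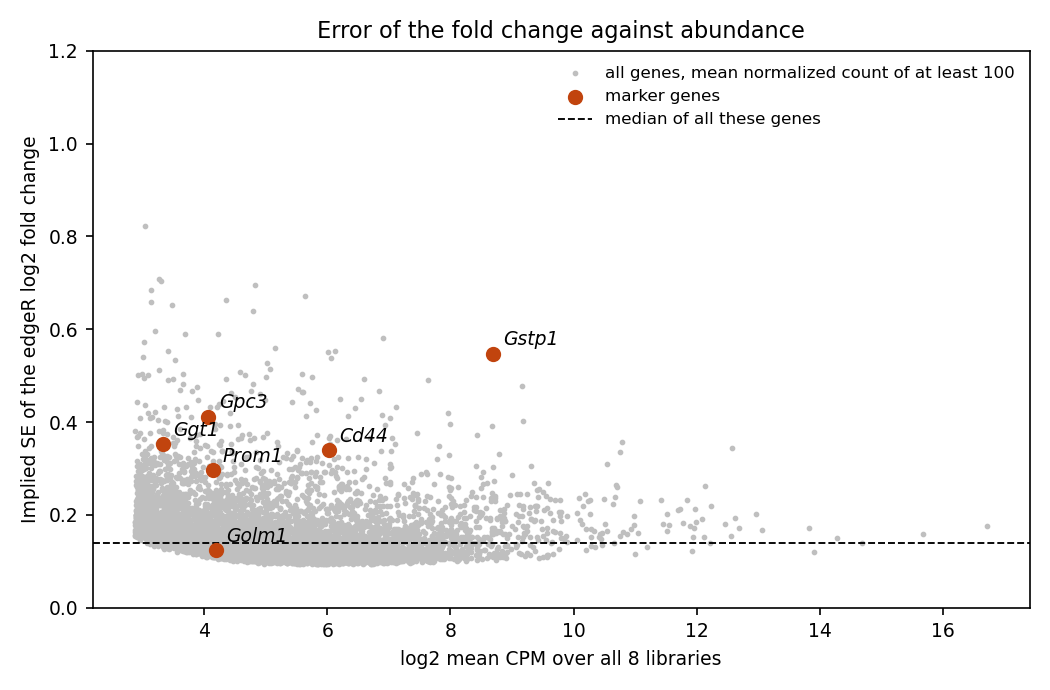
Implied standard error of the edgeR log2 fold change against log2 mean CPM over all libraries, for genes with a mean normalized count of at least 100 (grey) and 6 markers (filled). The dashed line is the median of 0.14; Gstp1 stands at 0.55 and only Golm1, at 0.12, lies below the line, and the axis ends at 1.2.

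Other enzymes and genes linked with these markers were read from lists chosen with earlier results of these data known. Over 12 lists, 146 of 178 genes had a row, of which 4 rose and 8 fell while 134 did not pass (edgeR adjusted p, authors' deposited table), beside 1.47% of all genes higher and 1.95% lower. The median edgeR log2 fold change of these 146 genes was -0.02 in the authors' deposited table, beside 0.01 for all genes. Among 12 measured enzymes and pumps known from rat liver foci, 1 rose and 1 fell, and 10 did not pass, with a median of -0.12. Gpx2, a glutathione peroxidase, fell to 13.6 FPKM in CDAA_PTS livers, against 23.0 FPKM in CDAA livers, with an edgeR log2 fold change of -0.77 (adjusted p 0.037, authors' deposited table). Aldh3a1, an aldehyde dehydrogenase induced through the aryl hydrocarbon receptor, had 1.49 FPKM in CDAA_PTS livers and 0.0806 FPKM in CDAA livers. It passed in edgeR as higher (log2 fold change 4.13, adjusted p 0.0029) and in Cuffdiff (q 0.020, authors' deposited table). DESeq2 gave Aldh3a1 a moderated 0.64 with an SE of 0.17 and no p. Its mean was 1.51 CPM, with a mean normalized count of 19.1. Whether single rats carry this difference is not known. Akr7a3, an aflatoxin aldehyde reductase that rises in rat foci, had 172 FPKM in CDAA_PTS livers and 241 FPKM in CDAA livers, with adjusted p 0.42 in edgeR and q 0.040 in Cuffdiff (authors' deposited table). The most abundant list members by CPM that did not pass, the epoxide hydrolase Ephx1 and the retinal dehydrogenase Aldh1a1, had log2 fold changes in edgeR of -0.24 for Ephx1 and -0.04 for Aldh1a1 (authors' deposited table).

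Gstp1 was the third highest by FPKM of 21 measured glutathione transferase genes in both groups, behind Mgst1 and Gstm1. Of the other 20, 1 rose, 1 fell and 18 did not pass in edgeR, with a median log2 fold change of 0.08 in the authors' deposited table. Over all genes edgeR called 1.47% higher and 1.95% lower. Gsta1, the alpha-class enzyme of normal hepatocytes, rose to 473 FPKM in CDAA_PTS livers, against 277 FPKM in CDAA livers, with an edgeR log2 fold change of 0.76 (adjusted p 0.036, authors' deposited table); it is listed with the same locus coordinates as Gsta3, so its value is uncertain. Gstm3 had an edgeR log2 fold change of -1.66 and fell (adjusted p 0.014), but Cuffdiff gave a q of 0.71 in the authors' deposited table, and it is listed with the same locus coordinates as Gstm7 and other mu-class genes, so its value is uncertain. None of 10 measured genes of the Ggt family and glutathione cycle was called by edgeR, 3 of them had an unadjusted p under 0.05, and DESeq2 and Cuffdiff called 1 each. The shares of all genes were 3.41% in edgeR, 14.6% at that unadjusted p, 4.46% in DESeq2 and 5.51% in Cuffdiff. Beside them the edgeR count is not a result about this family. Dpep1, the dipeptidase that acts on the product of Ggt1, had 6.03 FPKM in CDAA_PTS livers and 3.90 FPKM in CDAA livers (edgeR adjusted p 0.25, Cuffdiff q 0.018, authors' deposited table).

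Afp lies 9.5 kb from Afm and 16.4 kb from Alb in the albumin gene cluster of chromosome 14. Alb was listed at 0 FPKM in both groups of the authors' deposited table although it had the highest mean CPM, so no level is read from that 0; its edgeR log2 fold change was -0.09 (adjusted p 0.90). Afm had 271.5 FPKM in CDAA_PTS livers and 288 FPKM in CDAA livers (edgeR adjusted p 0.91, authors' deposited table). In the list of 17 genes of this family and of Afp regulators, 1 rose and 2 fell, and 14 did not pass, with a median edgeR log2 fold change of -0.08 in the authors' deposited table. Over all genes 1.47% were called higher and 1.95% lower. Nr5a2, a nuclear receptor that binds the Afp promoter, rose by a log2 fold change of 0.42, to 16.2 FPKM in CDAA_PTS livers against 12.1 FPKM in CDAA livers (edgeR adjusted p 0.012, authors' deposited table). Cebpb, a bZIP factor of the acute phase and regeneration, fell to 12.0 FPKM in CDAA_PTS livers against 20.0 FPKM in CDAA livers (edgeR log2 fold change -0.73, adjusted p 0.00047, authors' deposited table). Atf3, a stress-induced bZIP factor, fell to 2.34 FPKM in CDAA_PTS livers against 7.29 FPKM in CDAA livers (edgeR log2 fold change -1.58, adjusted p 9.0e-05, authors' deposited table). Among other oncofetal genes 7 of 17 had a row and 0 were called by edgeR, DESeq2 or Cuffdiff, with 1 unadjusted edgeR p under 0.05 and a median log2 fold change of -0.39 in the authors' deposited table. Beside the shares of all genes, 3.41%, 4.46% and 5.51% in that order and 14.6% unadjusted, these counts are not a result about oncofetal genes. Igf2, the fetal growth factor, had 4.80 FPKM in CDAA_PTS livers and 8.39 FPKM in CDAA livers (edgeR adjusted p 0.89, authors' deposited table), and DESeq2 gives it no p.

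Genes of progenitor cells and ductules, 20 of 20 measured, held 1 that fell and 19 that did not pass, with a median edgeR log2 fold change of 0.02 in the authors' deposited table. Over all genes edgeR called 1.47% higher and 1.95% lower, and DESeq2 called 2.5% lower. Tnfrsf12a, the receptor for TWEAK that drives progenitor growth, fell to 7.74 FPKM in CDAA_PTS livers against 15.4 FPKM in CDAA livers (edgeR log2 fold change -1.0, adjusted p 0.0052, authors' deposited table). Sox9, a factor of bile duct and progenitor cells related to Sox4, had 4.41 FPKM in CDAA_PTS livers and 3.04 FPKM in CDAA livers (edgeR adjusted p 0.40, Cuffdiff q 0.043, authors' deposited table). DESeq2 called 3 genes of this list lower, namely Tnfrsf12a, the keratin Krt8 (adjusted p 0.031, against 0.089 in edgeR) and the aminopeptidase Anpep (adjusted p 0.033, against 0.21 in edgeR), all from the authors' deposited table. Among 20 measured secreted and surface tumour genes, 1 rose and 2 fell, and 17 did not pass, with a median edgeR log2 fold change of -0.145 in the authors' deposited table. Ceacam1, a cell adhesion protein of the bile canaliculus, rose to 45.6 FPKM in CDAA_PTS livers against 31.1 FPKM in CDAA livers (edgeR log2 fold change 0.55, adjusted p 0.00027, authors' deposited table). Lgals3, the galactoside-binding lectin galectin-3, fell to 62.2 FPKM in CDAA_PTS livers against 93.4 FPKM in CDAA livers (edgeR log2 fold change -0.60, adjusted p 0.0015, authors' deposited table). S100a10, the annexin A2 partner, fell to 60.6 FPKM in CDAA_PTS livers against 92.0 FPKM in CDAA livers (edgeR log2 fold change -0.61, adjusted p 0.034, authors' deposited table).

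Relatives and partners of the remaining markers were mostly not called. Of 8 measured glypicans and syndecans, Sdc3, a syndecan, had a log2 fold change of -0.37 and fell (adjusted p 0.042 in edgeR, Cuffdiff q 0.11, authors' deposited table) and 7 did not pass. Gpc4, which lies 114.5 kb from Gpc3 on chromosome X, had 22.8 FPKM in CDAA_PTS livers and 23.6 FPKM in CDAA livers (edgeR adjusted p 0.90, authors' deposited table). In edgeR 0 of 16 hyaluronan and Cd44 partners, 0 of 9 midkine and pleiotrophin receptors, 0 of 9 Sox genes and 0 of 2 trefoil and mucin genes were called. At an unadjusted edgeR p under 0.05 the counts in the authors' deposited table were 1, 3, 1 and 0 in that order. DESeq2 called none of these genes, and Cuffdiff called 1 lower in each of the first 2 lists and 1 higher, Sox9, in the third in the authors' deposited table. Over all genes the shares called were 3.41% in edgeR, 4.46% in DESeq2 and 5.51% in Cuffdiff, with 14.6% at that unadjusted p. Beside these shares the edgeR calls are not a result about these lists.

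**Figure D4:**
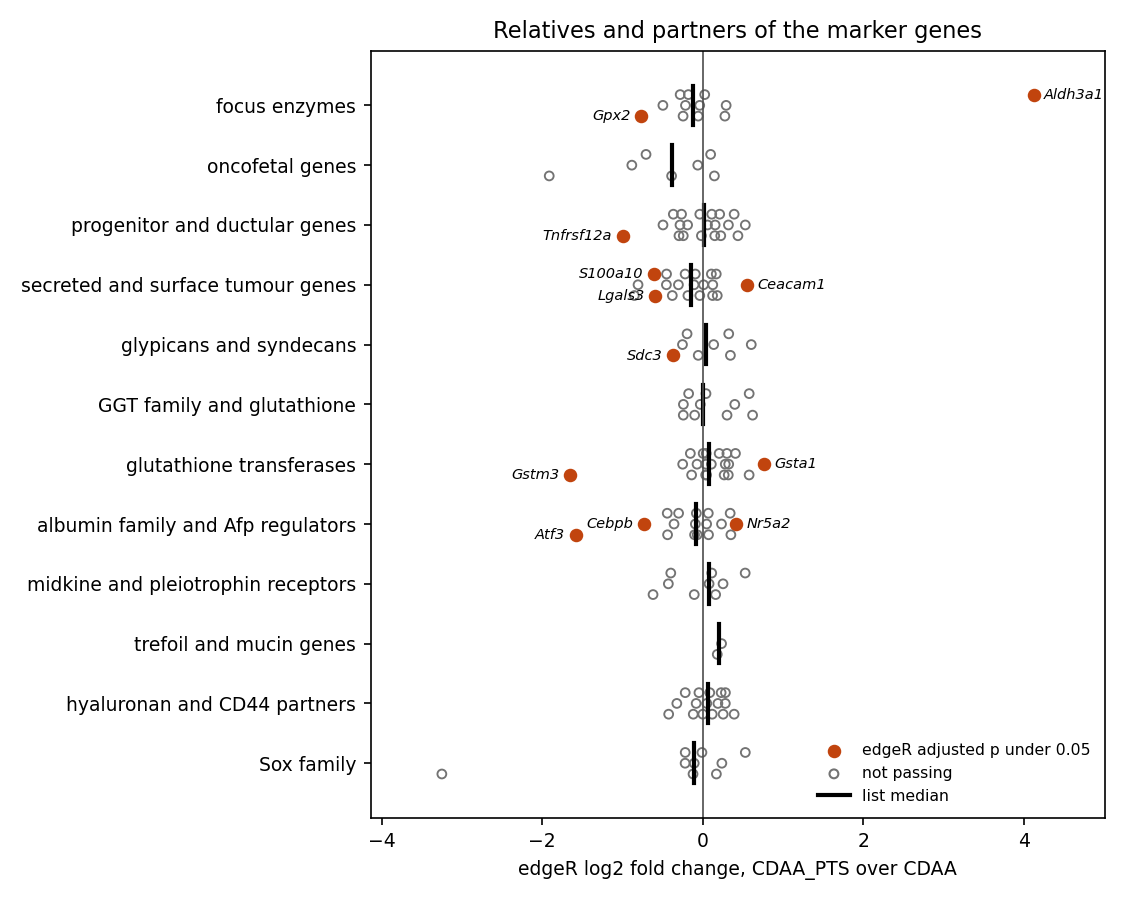
EdgeR log2 fold change of CDAA_PTS over CDAA for every measured gene of 12 lists of relatives and partners, with called genes filled and named and the list median as a bar. Of 146 distinct genes, 4 rose and 8 fell; most points lie close to 0.

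The labelled tissue was checked against cell type markers, and liver parenchyma was evident. All 12 hepatocyte markers had a row, and 0 were called by edgeR, DESeq2 or Cuffdiff (1 unadjusted edgeR p under 0.05). Their summed FPKM was 35960 in CDAA_PTS and 35570 in CDAA in the authors' deposited table. Alb, listed at 0 FPKM and not tested by Cuffdiff, adds nothing to these sums, and DESeq2 gives Tat no p. Of 12 cholangiocyte markers 11 had a row, and all 11 had edgeR log2 fold changes above 0. Of these 11, edgeR and DESeq2 called 0, Cuffdiff called 1, and 1 had an unadjusted edgeR p under 0.05 (authors' deposited table). Over all genes the shares called were 3.41% in edgeR, 4.46% in DESeq2 and 5.51% in Cuffdiff, with 14.6% at that unadjusted p. Beside these shares the calls are not a result about bile duct cells. The share of all genes above 0 was not counted. The summed FPKM of the 11 cholangiocyte markers was 150 in CDAA_PTS livers and 128 in CDAA livers in the authors' deposited table. Their median edgeR log2 fold change was 0.24, beside 0.01 for all genes. Sox9 is one of these 11 genes and is the Cuffdiff call among them. Bile duct cells also carry Prom1, and their part in its value was not tested. Of 12 macrophage markers 1 fell, Gpnmb, a glycoprotein of lipid-laden macrophages, with a log2 fold change of -0.46 (adjusted p 0.013 in edgeR), and summed FPKM was 444 in CDAA_PTS and 474 in CDAA in the authors' deposited table. Of 11 measured T and NK cell markers edgeR, DESeq2 and Cuffdiff called 0, with 0 at an unadjusted edgeR p under 0.05. Their summed FPKM was 39.8 in CDAA_PTS and 36.7 in CDAA in the authors' deposited table. Cd4 alone held 22.94 FPKM in CDAA_PTS and 22.91 FPKM in CDAA of these sums. Of the 11 T and NK cell markers, 8 had edgeR log2 fold changes above 0 and 3 below. Their median was 0.27, so values above 0 were not particular to the cholangiocyte list. Cd44 is also made by these leukocytes, and their part in its value was not tested. Of 13 genes of dividing cells edgeR and DESeq2 called 0 and Cuffdiff 1, the replication licensing gene Mcm5, which was lower (q 0.042, authors' deposited table). The 2 with an unadjusted edgeR p under 0.05, Mcm5 at a log2 fold change of -0.75 and its partner Mcm2 at -0.36, were both below 0 in the authors' deposited table. Over the 13 genes the median was -0.03, and summed FPKM was 63.1 in CDAA_PTS and 61.8 in CDAA in the authors' deposited table.

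**Figure D5:**
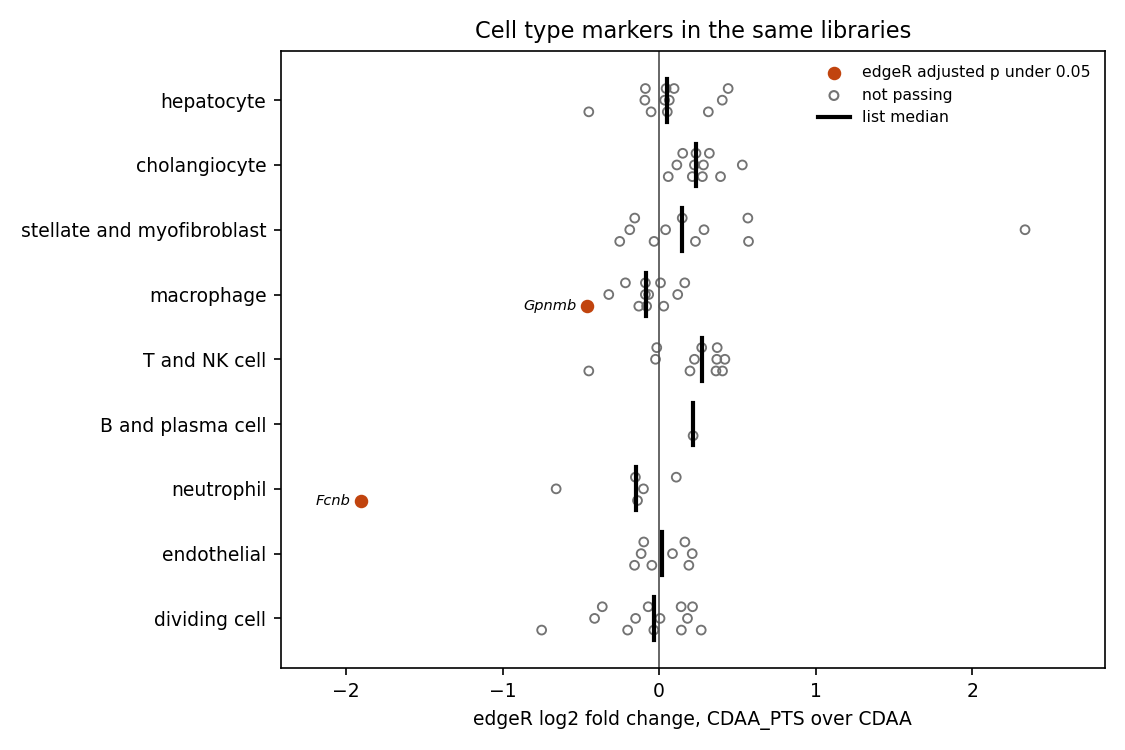
EdgeR log2 fold change of CDAA_PTS over CDAA for every measured gene of 9 cell type lists, with called genes filled and named and the list median as a bar. Gpnmb and Fcnb are the 2 called genes of 85 measured, both lower, where 3.41% of all genes are called. All 11 cholangiocyte markers and 8 of 11 T and NK cell markers lie above 0 without an edgeR call.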

How the data were processed

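Liver RNA of 4 CDAA_PTS and 4 CDAA rats was extracted with Trizol and made into libraries with a TruSeq RNA kit, per the labels' protocols. Build rn6, TopHat2, Cufflinks, edgeR, DESeq2 and FastQC are named by the authors, per the submitters' processing notes, with no versions. The strand, the counting tool and the model designs are not stated there. The deposited table of 15115 genes holds, per the file headers, a DESeq2 block, an edgeR block and a Cuffdiff block. The authors' DESeq2 block gives a signal (mean of counts over size factors), a log2 fold change with its SE, a Wald score and p-values. From edgeR, the authors deposited log2 fold changes, log2 mean CPM and p-values. From Cuffdiff, the authors deposited 1 FPKM per group, a log2 ratio, a test score, p-values and q-values. The file has 0 columns of per-sample values, so depth per library and the spread between rats are unknown, no exact test could be run, and which of the rats, kept in pairs, shared a cage is not given. P-values measure variation between these samples only as the authors' models estimated it.

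The authors' edgeR adjusted p under 0.05 over all genes was the threshold, and DESeq2 and Cuffdiff were alternatives. Benjamini-Hochberg adjustment was recomputed only after a filter of 1 CPM, and the implied standard errors and 95% intervals (normal deviate 1.96) were computed here. The adjustment and the implied errors were run on simulated data, without the 1 CPM filter. The simulated p-values came from the same normal formula, so that run checks the arithmetic only. Whether a p from edgeR gives a valid error or interval in this way was not tested. The implied error was limited to log2 fold changes of at least 0.03, a limit set after seeing that it is unstable nearer to 0. Fold changes run CDAA_PTS over CDAA: for 512 of 514 called genes the sign of the authors' edgeR value matched the difference between the groups' FPKM. An adjusted p missing from the authors' DESeq2 block was kept missing. The members and lists were chosen with earlier results of these data known. Named genes were all members, every called gene of a list, and up to 2 abundant others per list. Family relatives could also be named as neighbours of a member, as Afm and Gpc4 were. LOC360919, a neighbour of Afp, was added from outside the lists. Akr7a3, Dpep1, Sox9, Krt8, Igf2, Anpep, Mcm2, Mcm5, Akr1b10, Slc7a11, Cd24, Krt19, Spp1, Lum, Dcn and Tat were chosen after their values were seen. Software was Python 3.11.15, pandas 2.3.3, NumPy 2.4.6, SciPy 1.17.1 and matplotlib 3.10.9.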

Additional observations from a re-analysis of the deposited data

How the results depend on the processing

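The count of markers called stayed at 0 lower under every alternative run, and at 0 higher except under Cuffdiff, where it was 1 (Ggt1, log2 ratio 0.73); the cause was not tested. Over all genes, Cuffdiff called 371 higher. At an edgeR adjusted p under 0.01 there were 102 higher and 111 lower, and at 0.1 there were 354 higher and 443 lower, as looser and stricter thresholds make them. Of 53 alternative fold changes of markers, 48 kept their direction and their side of the threshold. The 4 that changed sign were all of Afp, whose value is near 0: -0.0196 in Cuffdiff, -0.0048 after centring on the median of all genes, and on the FPKM ratio -0.0182 with a pseudocount of 1 and -0.0194 with one of 0.1. Tff3, under 1 CPM, has no value with the 1 CPM filter. Of 72 counts of single lists, 11 moved, most of them from 0 to 1 or from 1 to 0. The largest move was in lower progenitor and ductular genes, with 1 in edgeR and 3 in DESeq2. With the DESeq2 p in place of the edgeR p, an alternative chosen after seeing the data, the share of genes with a smaller error was 99.8% for Gstp1, 98.9% for Gpc3, 98.4% for Ggt1, 98.0% for Cd44, 96.6% for Prom1 and 35.0% for Golm1. Ranking against genes of similar depth, also chosen after seeing the data, left the same 5 markers above 95%. No paired analysis was possible because the deposited table has no column per rat, and leaving out single rats was not run for the same reason. Depth per library is unknown, and Tff3 and Mdk, with mean normalized counts of 9.14 and 28.6, are the markers that low counts limit most.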

Other observations

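Among stellate cell and myofibroblast markers, 11 of 12 had a row and edgeR called 0, with 2 at an unadjusted p under 0.05. Over all genes edgeR called 3.41%, and 14.6% had such an unadjusted p. Of the 11 markers, 7 had edgeR log2 fold changes above 0 and 4 below, with a median of 0.15. Their summed FPKM was 318.5 in CDAA_PTS livers and 306.8 in CDAA livers. The 2 markers with that unadjusted p were Lum and Dcn, so their values do not stand for the list. Lum, a proteoglycan of scar matrix, stood at 2.20 FPKM in CDAA_PTS livers and 0.433 FPKM in CDAA livers in the authors' deposited table. Its edgeR log2 fold change of 2.34 had an adjusted p of 0.053, Cuffdiff gave a q of 0.0019 and DESeq2 gave no p in the authors' deposited table. Dcn, a related matrix proteoglycan, had 32.4 FPKM in CDAA_PTS livers and 21.7 FPKM in CDAA livers (edgeR adjusted p 0.23, Cuffdiff q 0.0019, authors' deposited table). Fcnb, a lectin of neutrophils and monocytes, fell to 0.790 FPKM in CDAA_PTS livers against 3.02 FPKM in CDAA livers (edgeR log2 fold change -1.91, adjusted p 0.0011, authors' deposited table). Of the other 5 measured neutrophil genes edgeR called none, 8 of 9 endothelial markers had a row with 0 called by edgeR (1 unadjusted p under 0.05), and only Jchain of 7 B and plasma cell markers had a row, uncalled.

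LOC360919, annotated in the authors' deposited table as similar to alpha-fetoprotein, lies 69.1 kb from Afp. It had 48.3 FPKM in CDAA_PTS livers and 38.8 FPKM in CDAA livers, above Afp in both groups, and was not called (edgeR log2 fold change 0.31, adjusted p 0.51, authors' deposited table). Reads shared between it and Afp were not examined.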
